A study of Mus musculus with 9 samples.

Results

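The genes described here are 10 that encode scavenger receptors of the macrophage, the mannose receptor CD206 and the oxidised LDL receptor LOX-1. Msr1, Marco, Cd36, Scarb1, Scarb2, Olr1, Stab1, Cd163, Mrc1 and Cd68 were found by matching their mouse symbols to Ensembl identifiers, and all 10 were present among the 55655 rows of the expression tables. RNA was sequenced from bone marrow-derived macrophages (BMDMs) of wild type C57BL/6 mice aged 6 to 8 weeks, grown from femur and tibia marrow for 7 days with 10 ng/mL M-CSF, the growth factor that drives marrow cells to become macrophages. M0 macrophages received no further stimulus and are labelled as not treated with photobiomodulation (PBM). M1 macrophages were stimulated for 12 hours with 100 ng/mL lipopolysaccharide (LPS) and 20 ng/mL IFN-γ and kept in a dark box without light. M1+PBM macrophages received the same stimulus and light of 808 nm at 6 mW/cm2 for 7 minutes per session from the time the stimulus was added. Each group had 3 libraries. The labels do not say whether the replicates came from separate mice or cultures, so p-values measure only the spread between these libraries.

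Scavenger receptors are surface proteins that bind and take in modified lipoproteins, bacterial wall components, dying cells and other waste. They belong to several structural classes that share function rather than ancestry, and a macrophage carries a mixture of them that differs with its state of activation. Class A receptors (Msr1, Marco) bind polyanionic ligands and bacteria, class B receptors (Cd36, Scarb1, Scarb2) handle lipids, lipoproteins and lysosomal cargo, and CD206 and CD163 are widely used as markers of macrophages outside the M1 state.

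Expression was given as FPKM, the number of sequenced fragments scaled by transcript length and by the mapped fragments of the library, so levels can be compared between genes. The steps between low values were best matched by 30790000 to 42150000 fragments per library, an approximate estimate, since most low values did not fall on such steps. All 9 libraries had high levels of macrophage genes, with Adgre1 (F4/80) between 299.2 and 864.4 FPKM and Csf1r between 155.7 and 342.7, while the 5 lymphoid and 5 dendritic cell markers stayed under 1 FPKM in every library. The summed FPKM of 6 neutrophil markers was 1.24 to 2.21 in M0, 6.97 to 27.3 in M1 and 4.97 to 14.7 in M1+PBM, nearly all of it S100a8, with S100a9 and Ly6g listed at 0 throughout. That of 6 endothelial markers was 1.84 to 2.63, 9.59 to 27.6 and 9.29 to 15.4, mostly Kdr, with Lyve1 and Clec4g at or near 0, and both sums were highest in M1 replicate 3. Their part in the results was not tested. M0 replicate 3 stood apart from the other M0 libraries. The summed FPKM of 6 M1 markers (Nos2, Cd86, Il1b, Tnf, Il6, Cxcl10) was 278.5 in it, against 18.4 and 16.3 in M0 replicates 1 and 2 and 1922.2 to 1986.1 in M1. Its sum over 5 stromal markers was 173.1, against at most 6.23 in the other M0 libraries. The stromal sum was 8.07 to 11.5 in M1 and 3.25 to 24.1 in M1+PBM, and its part in the results was not tested. M1 replicate 2 had 9.01 FPKM of the liver gene Alb, which was listed at 0 in the other 8 libraries. Values without M0 replicate 3 are given beside the results it touches, and the part of the liver transcripts of M1 replicate 2 was not tested. M0 was deposited in a separate table that may have been normalized on its own, so M1 was compared with M0 by level and overlap, without a test.

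**Figure D1:**
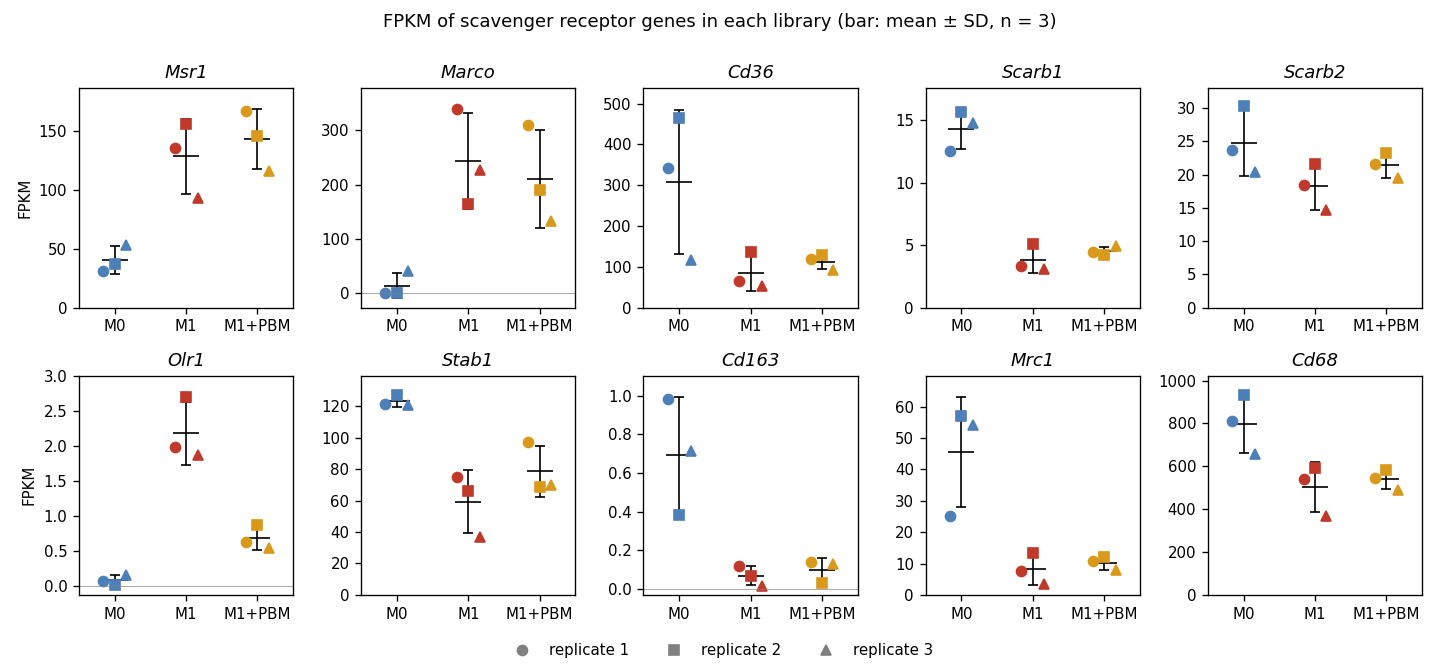
FPKM (vertical axes, linear and scaled to each gene) of the 10 genes in the M0, M1 and M1+PBM libraries. Symbols give the replicate number and black bars the mean ± SD of 3 libraries. Msr1, Marco and Olr1 were higher in every M1 than in every M0 library, and Olr1 was the only one of the 10 whose M1 and M1+PBM libraries did not overlap.

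The first comparison asked how the receptors differed between resting and classically activated macrophages. The repertoire differed in both directions. Msr1, Marco and Olr1 were higher in M1 than in M0, and Scarb1, Stab1 and Mrc1 were lower, in each case by at least 1 on the log2(FPKM + 1) scale and with no overlap between the 3 libraries of each group. The same was true of 7.81% of the 13915 rows expressed at 1 FPKM or more in 3 or more of the 9 libraries in the upward direction and of 13.7% in the downward direction. The other 4 genes all had lower means in M1. The median difference over the 10 genes was -0.67, and over all 13915 rows it was -0.34, so a lower value in M1 was common. After scaling each library by the median of its ratios to the mean library, the median over all rows was -0.08, and Stab1 then fell short of the threshold at -0.76. In that scaling 10.4% of rows were higher and 8.49% lower by the same criterion. No gene of the 10 changed its direction with the scaling.

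Marco, a collagen-like receptor for bacteria and particles, had the widest difference on the log2(FPKM + 1) scale. Its FPKM was 0.31, 1.49 and 40.8 in the M0 libraries and 338.6, 163.7 and 227.8 in the M1 libraries. M1 stood far above M0 in every library, and M0 replicate 3, the library that also carried M1 marker RNA, held nearly all of the M0 signal. The mean was 14.2 ± 23.1 FPKM in M0 and 243.4 ± 88.5 in M1 (SD, n = 3), a log2 difference of 5.51 and a 17.1-fold ratio of means. Without M0 replicate 3 the log2 difference was 7.02 and the ratio 270.8. The RefSeq sequence of the 250 bases before the Marco start (GRCm38.p6, chr1:120505025-120505274, minus strand) is shown because this gene moved furthest, with the core GAGGAA of sites bound by PU.1, the macrophage lineage factor, in capitals.
Marco: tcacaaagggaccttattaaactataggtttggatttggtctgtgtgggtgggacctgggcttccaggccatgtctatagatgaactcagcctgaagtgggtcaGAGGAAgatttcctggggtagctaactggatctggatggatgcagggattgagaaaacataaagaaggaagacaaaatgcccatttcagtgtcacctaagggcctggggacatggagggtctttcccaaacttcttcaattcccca

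Msr1, the class A receptor for acetylated LDL and polyanions (CD204), was already well expressed in M0, at 30.8, 37.4 and 53.5 FPKM. It reached 136 (replicate 1), 156.2 (replicate 2) and 93.1 (replicate 3) in M1. The lowest M1 library was above the highest M0 library, which was again M0 replicate 3. The means of 40.6 ± 11.7 and 128.4 ± 32.2 FPKM (SD, n = 3) gave a 3.17-fold ratio and a log2 difference of 1.64, or 1.86 without M0 replicate 3.

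Olr1 encodes LOX-1, the lectin-like receptor for oxidised LDL. Its transcript was near the limit of detection in M0, at 0.0754, 0.0164 and 0.166 FPKM, and low in M1, at 1.98, 2.70 and 1.87. Every M1 library exceeded every M0 library. The means were 0.0859 ± 0.0753 and 2.18 ± 0.452 FPKM (SD, n = 3). From the longest annotated transcript, at most 2.0 to 20.5 fragments lay behind the M0 values and 208.6 to 351.9 behind the M1 values, so no fold is given. The log2 difference of 1.54 depended on the pseudocount, since it was 3.68 with 0.1 added in place of 1. The 250 bases before the RefSeq start of Olr1 (GRCm38.p6, chr6:129507166-129507415, minus strand) are shown because this was the gene that separated M1 from M1+PBM. The capitals mark the PU.1 core on the opposite strand and the AP-1 site TGANTCA.
Olr1: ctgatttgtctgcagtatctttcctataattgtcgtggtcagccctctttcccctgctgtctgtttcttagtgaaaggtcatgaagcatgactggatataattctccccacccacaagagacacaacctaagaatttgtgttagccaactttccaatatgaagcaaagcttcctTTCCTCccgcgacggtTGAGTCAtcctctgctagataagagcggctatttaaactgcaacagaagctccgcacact

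Mrc1 encodes CD206, the mannose receptor that takes up glycoproteins with mannose ends and that the study used as a marker of M2 macrophages. Its FPKM was 25.3, 57.1 and 54.1 in M0 and 7.64, 13.4 and 3.60 in M1. The M1 libraries were all below the lowest M0 library, M0 replicate 1. The means of 45.5 ± 17.5 and 8.21 ± 4.91 FPKM (SD, n = 3) differed 5.54-fold, with a log2 difference of -2.40. On this scale it was the lowest value of the 10 genes with all libraries. The study's primers for CD206 were tctttgcctttcccagtctcc and tgacacccagcggaatttc. They lie from base 67 to base 307 of the 5374-base Mrc1 transcript in GENCODE M21 and give a product of 241 bases, and the shorter annotated transcript (2069 bases) does not hold them. The 250 bases before the RefSeq start of Mrc1 (GRCm38.p6, chr2:14229164-14229413, plus strand) are shown beside those of Marco and Olr1 as the gene that was lower, with the PU.1 core in capitals, each time on the opposite strand.
Mrc1: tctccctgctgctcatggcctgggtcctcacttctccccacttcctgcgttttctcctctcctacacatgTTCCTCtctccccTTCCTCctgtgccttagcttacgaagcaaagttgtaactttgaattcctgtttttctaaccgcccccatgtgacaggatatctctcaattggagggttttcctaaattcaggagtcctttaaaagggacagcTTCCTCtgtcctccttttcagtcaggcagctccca

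The class B receptors all had lower means in M1. Cd36, the fatty acid and oxidised LDL receptor, was at 342.4, 465.4 and 116.6 FPKM in M0 and at 66.2, 135.2 and 53.3 in M1. The groups overlapped because M0 replicate 3 (116.6) lay below M1 replicate 2 (135.2). The log2 difference was -1.75 with all libraries and -2.34 without M0 replicate 3, where the groups no longer overlapped and 4 of the 10 genes were lower (14.6% of all rows). The same 3 genes as before were then higher (8.82% of all rows). Cd36 also met the criterion without M1 replicate 2, where 15.5% of all rows were lower.

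Scarb1, the HDL receptor SR-BI, was at 12.5, 15.6 and 14.7 FPKM in M0 and at 3.36, 5.09 and 3.06 in M1. The libraries of the 2 groups were well apart, and M0 replicate 3 lay within the range of the other M0 libraries. The ratio of M0 to M1 means was 3.72 and the log2 difference -1.68, or -1.38 after median-of-ratios scaling. Scarb2 (LIMP-2), the lysosomal receptor that carries glucocerebrosidase, differed least. It ranged from 20.4 to 30.3 FPKM in M0 and from 14.7 to 21.6 in M1, which overlapped, and its log2 difference of -0.42 was near the median of all rows and became -0.09 after scaling.

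Stab1, a stabilin that clears extracellular matrix fragments and dying cells, was at 121.3, 127.1 and 120.6 FPKM in M0 and at 75.1, 66.1 and 36.7 in M1. The M0 libraries were close together, the M1 libraries were spread, and the groups did not overlap. Its log2 difference was -1.10, and it was -0.80 without M1 replicate 3, the lowest M1 library, so 2 genes then remained lower by the criterion (Scarb1 and Mrc1, 12.1% of all rows). Cd163, the receptor for haemoglobin-haptoglobin complexes, was low everywhere. It lay between 0.384 and 0.983 FPKM in M0 and between 0.0170 and 0.117 in M1, without overlap, with at most 58 to 134.5 and 2.36 to 20.6 fragments behind the values. Its log2 difference was -0.65, and -2.22 with a pseudocount of 0.1. Cd68 (macrosialin), a late endosomal glycoprotein, was the most abundant of the 10 in every library. It ranged from 655.8 to 931.0 FPKM in M0 and from 370.0 to 593.5 in M1, without overlap, at a log2 difference of -0.69, or -0.34 after scaling. With bulk RNA, fewer cells that carry a transcript and less transcript per cell cannot be told apart.

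The order of the levels also differed between the states. In M0 the means ran from Cd68 (799.2 FPKM) through Cd36 (308.1) and Stab1 (123.0) to Mrc1 (45.5) and Msr1 (40.6). Mrc1 and Msr1 overlapped, and so did Cd36 and Stab1, since Cd36 was below Stab1 in M0 replicate 3. In M1 Cd68 (501.4) was followed by Marco (243.4) and Msr1 (128.4), and Cd36 (84.9) and Stab1 (59.3) came next. The ranges of neighbouring genes in this order overlapped for Cd36 and Msr1 and for Cd36 and Stab1, and not for Marco and Msr1. Within each M1 library Marco was above Msr1 and Msr1 above Cd36, whereas the order of Cd36 and Stab1 varied. The ranges of Mrc1 (8.21) and Scarb1 (3.83) overlapped, with Mrc1 above Scarb1 within each M1 library, and Olr1 and Cd163 were the least abundant.

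**Figure D2:**
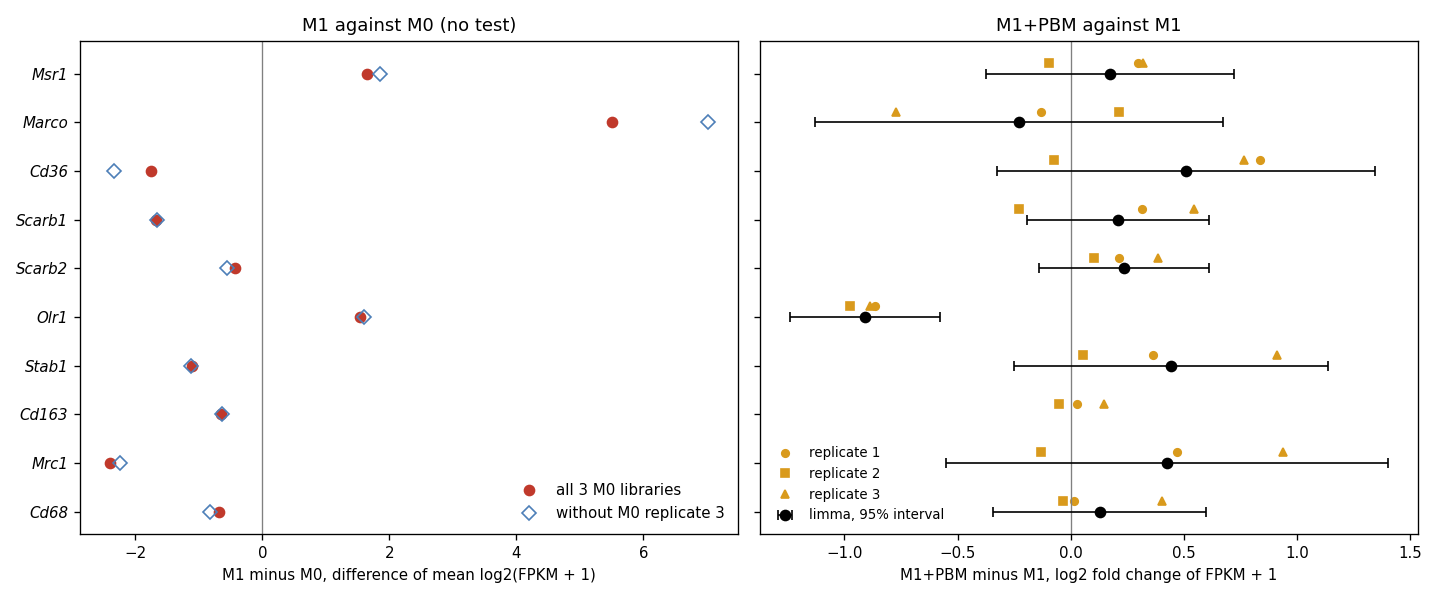
Left, M1 minus M0 in mean log2(FPKM + 1) for each gene, with all 3 M0 libraries (filled) and without M0 replicate 3 (open). Right, M1+PBM minus M1 on the same scale, as the limma estimate with its 95% interval (black) and the difference of each replicate pair (symbols, drawn slightly above). Marco and Cd36 moved most when M0 replicate 3 was left out. Olr1 was the only tested gene whose interval lay away from 0, and it entered the test through its M1 libraries alone, which favours that outcome. Of all tested rows, 1.45% were lower at an unadjusted limma p of at most 0.05.

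The second comparison asked whether PBM changed these receptors during M1 activation. Both M1 and M1+PBM stand in 1 table and were tested with limma, a linear model with moderated variances, on log2(FPKM + 1) over the 12238 rows expressed at 1 FPKM or more in 3 or more of the 6 libraries. Of the 10 genes, 9 were tested, since Cd163 did not reach the minimum, and Olr1 reached it through its 3 M1 libraries alone. The study's thresholds were an unadjusted p of at most 0.05 and a log2 change of at least 1. Here they were applied to limma on log2(FPKM + 1), and the paper does not name the test behind them, so its own calls may differ. None of the 9 met them, against 0.261% of all rows, and none had an adjusted limma p under 0.05, against 0.00817%. Olr1 was the only gene of the 9 with an unadjusted p of at most 0.05 (lower, as 1.45% of rows were), and since it entered the test through the group where it is high, that call is favoured by the minimum FPKM. No gene was higher at that p, against 2.99% of rows. Over all rows 177 were lower and 366 higher at that p, and after median-of-ratios scaling 276 and 249.

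Olr1 was lower with PBM. Its FPKM was 1.98, 2.70 and 1.87 in M1 and 0.637, 0.879 and 0.550 in M1+PBM. The highest M1+PBM library was below the lowest M1 library, and no other of the 9 genes separated the groups. Among all rows 2.52% did so in this direction and 8.51% in the other. The means of 2.18 ± 0.452 and 0.689 ± 0.170 FPKM (SD, n = 3) differed 3.17-fold. On the log2(FPKM + 1) scale, which shrinks the change of so low a gene, the difference was -0.91 (SE 0.14, 95% interval -1.24 to -0.58), with an unadjusted limma p of 0.000439 and an adjusted p of 0.81. Because the minimum FPKM favours a gene that reaches it in M1 alone, these p-values describe the spread and are not independent support. Without a minimum FPKM the unadjusted limma p was 0.000927 and the adjusted p 0.78. The exact two-sided permutation p was 0.1, the smallest that 3 against 3 libraries allow. With each library left out in turn the difference lay between -0.99 and -0.80. With a pseudocount of 0.1 the difference was -1.54 and Olr1 met the study's thresholds.

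Set side by side by replicate number, the same Olr1 values gave M1+PBM minus M1 of -0.86, -0.98 and -0.89 on the log2 scale. These are the libraries already tested above, so they add no separate support. The M1+PBM level remained above that of M0 in every library, since the highest M0 value was 0.166 FPKM and the lowest M1+PBM value 0.550. At most 72.4 to 132.3 fragments lay behind the M1+PBM values.

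Mrc1 did not differ detectably with PBM. Its M1+PBM values of 11.0, 12.1 and 7.82 FPKM lay within the range of the M1 values, and the log2 difference was 0.43 (SE 0.41, 95% interval -0.55 to 1.40, adjusted limma p 0.90, exact permutation p 0.6). The interval leaves room for a more than 2-fold increase. The estimate rested on single libraries, as it was 0.82 without M1 replicate 2 (unadjusted limma p 0.0433, adjusted 0.56) and 0.00088 without M1 replicate 3. Its M1+PBM libraries were all below the lowest M0 library (25.3 FPKM).

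The class A receptors had wide overlap between M1 and M1+PBM. Marco was at 309.6, 189.9 and 133.0 FPKM with PBM, and its log2 difference of -0.23 (SE 0.38, 95% interval -1.13 to 0.67, adjusted limma p 0.93) changed sign when M1 replicate 1 or M1+PBM replicate 3 was left out. Msr1 was at 167.3, 146.0 and 116.4 FPKM with PBM, a log2 difference of 0.17 (SE 0.23, 95% interval -0.37 to 0.72, adjusted limma p 0.91). It was -0.04 without M1 replicate 3. Both stayed above every M0 library after PBM.

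Among class B receptors, Cd36 had the largest estimate. Its M1+PBM values were 119.0, 128.4 and 91.4 FPKM, and its log2 difference was 0.51 (SE 0.35, 95% interval -0.32 to 1.34, adjusted limma p 0.90, exact permutation p 0.4). It was higher with PBM in replicates 1 and 3 (0.84 and 0.77) and not in replicate 2 (-0.07). Without M1 replicate 2, the library with liver transcripts, the difference was 0.90 with an unadjusted limma p of 0.00443 and an adjusted p of 0.54, and without M1 replicate 3 it was 0.24 (unadjusted p 0.50). Scarb1 was at 4.42, 4.20 and 4.92 FPKM after PBM, with a log2 difference of 0.21 (95% interval -0.19 to 0.61) that was 0.39 without M1 replicate 2 (unadjusted limma p 0.0142, adjusted 0.55) and 0.10 without M1 replicate 3 (unadjusted p 0.584). Scarb2 ranged from 19.5 to 23.3 FPKM with PBM, with a log2 difference of 0.24 (95% interval -0.14 to 0.61, adjusted limma p 0.90), and leaving out M1 replicate 2 gave 0.36 and leaving out M1 replicate 3 gave 0.10.

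Stab1 and Scarb2 were the tested genes that were higher with PBM in all 3 replicate pairs, as were 25.5% of all rows. Stab1 was at 96.9, 68.6 and 69.9 FPKM, with paired differences of 0.36, 0.05 and 0.91 and a log2 difference of 0.44 (SE 0.29, 95% interval -0.25 to 1.14, adjusted limma p 0.90). For Stab1, leaving out M1 replicate 3 gave 0.14, leaving out M1 replicate 1 gave 0.64, and leaving out M1+PBM replicate 1 gave 0.28. Cd68 ranged from 489.5 to 580.5 FPKM with PBM and its log2 difference was 0.13 (95% interval -0.34 to 0.60), or -0.08 without M1 replicate 3. Cd163 stayed between 0.0301 and 0.138 FPKM, with at most 5.63 to 21.2 fragments, and an exact permutation p of 0.5. A difference in Cd163 was not detectable at this depth.

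Over the 9 tested genes, 7 had positive and 2 negative estimates, and their median was 0.21 beside 0.06 over all rows. The median was 0.00088 without M1 replicate 3, where that of all rows was 0.03, and 0.36 without M1 replicate 2, where that of all rows was 0.08. M1 replicate 3 was the lowest of the M1 libraries for 8 of the 9 tested genes, as it was for 50.9% of all tested rows. Marco was the exception, being lowest in M1 replicate 2. The macrophage genes did not share a direction in M1 replicate 3. Csf1r (155.7 FPKM, against 255.6 and 302.0), Adgre1, Mertk and Lyz2 were also at their lowest M1 level in it. Fcgr1 (490.2, against 354.2 and 314.2) and Itgam (99.5, against 72.1 and 46.2) were at their highest, and Cd14 lay between. In M1 replicate 2, Cd36, Mrc1 and Scarb1 were among the genes at their highest M1 level.

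**Figure D3:**
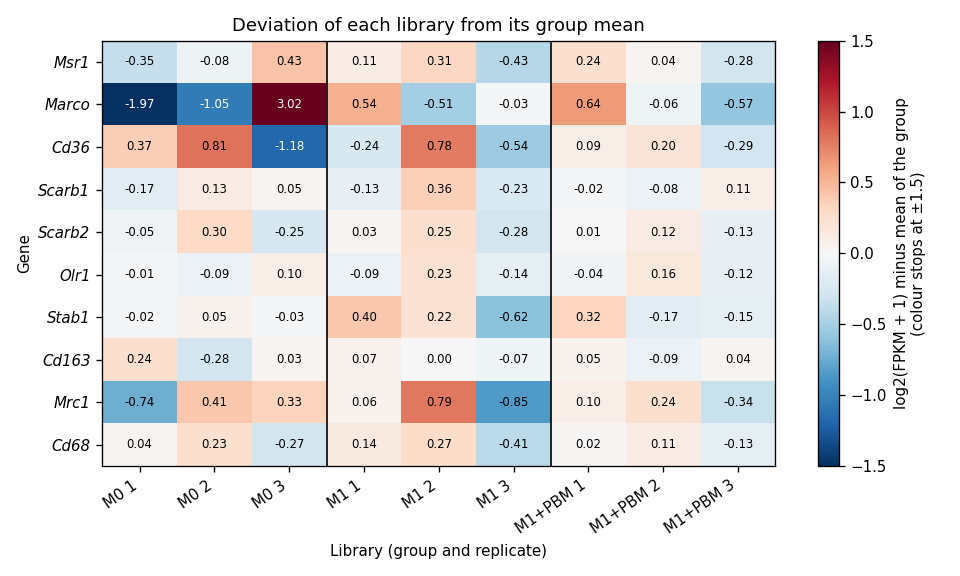
Deviation of each library (columns) from the mean of its group in log2(FPKM + 1), for each gene (rows), with red above and blue below the mean. Marco and Cd36 deviated most in M0 replicate 3, in opposite directions, and most genes were blue in M1 replicate 3.

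Within M0 the same receptors separated replicate 3. Marco was 4.53 higher on the log2 scale in it than the mean of M0 replicates 1 and 2, and Cd36 differed by -1.77. Both differences had the direction of M1 minus M0. Msr1 was 0.64 higher, Scarb1 differed by 0.07, Stab1 by -0.04 and Mrc1 by 0.49, so for Mrc1 the direction was opposite. Of all rows, 3.28% lay at least 1 beyond the other M0 libraries in M0 replicate 3.

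The remaining scavenger and mannose receptor family genes were described as a list of 22, of which 10 reached 1 FPKM in 3 or more of the 9 libraries. Between M0 and M1 the mean FPKM of Lgals3bp, a secreted protein with a scavenger receptor cysteine-rich domain, went from 123.0 to 594.3, a 4.83-fold ratio that was 7.63 without M0 replicate 3. Scarf1, an endothelial and macrophage receptor for modified LDL, went from 12.0 to 49.8, Cxcl16, a membrane chemokine that binds oxidised LDL, from 30.3 to 74.2, and Ly75 (DEC-205), a mannose receptor family member, from 1.79 to 10.2. Lower were Lrp1, the large endocytic LDL receptor relative (415.4 to 110.0), and Colec12, a collectin of the class A group (4.78 to 0.907). These 4 were higher and 2 lower by the criterion used above, beside 7.81% and 13.7% of all rows. None of the 9 tested had an unadjusted limma p of at most 0.05 between M1 and M1+PBM, with 4 estimates positive, 5 negative and a median of -0.01. Lrp1 had the smallest p (log2 difference 0.42, SE 0.21, unadjusted limma p 0.0973, adjusted 0.90).

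**Figure D4:**
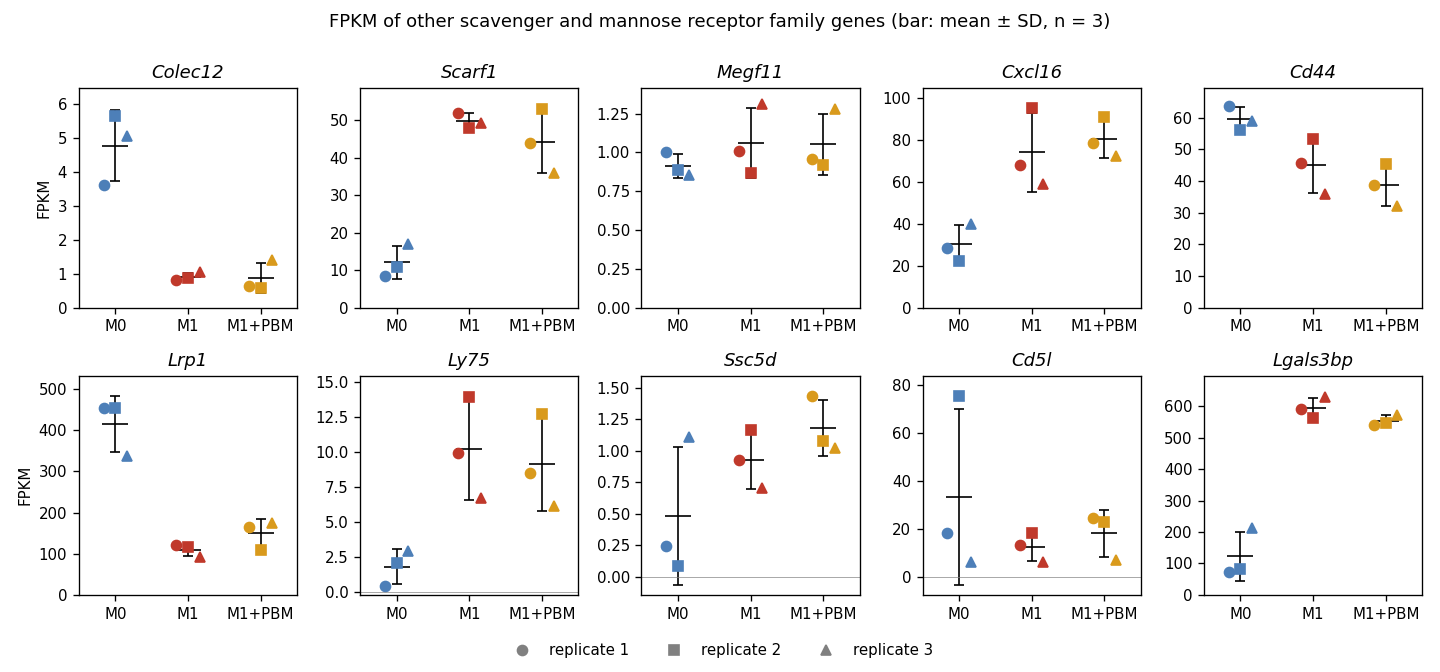
FPKM (vertical axes, linear and scaled to each gene) of the 10 other family genes that reached 1 FPKM in 3 or more libraries, by group and replicate, with black bars for mean ± SD of 3 libraries. Scarf1, Cxcl16, Ly75 and Lgals3bp were higher and Colec12 and Lrp1 lower in M1 than in M0, and M1+PBM overlapped M1 in all 10.

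Genes that handle the cargo of these receptors were followed as a list of 17. By the same criterion, 4 were lower in M1 than in M0 and 2 higher, beside 13.7% and 7.81% of all rows. Lower were, among others, Lipa, the lysosomal acid lipase (240.0 to 39.5 FPKM), and Slc40a1, the iron exporter ferroportin (19.4 to 1.90). Hmox1, the haem oxygenase that degrades haem taken up through CD163, was higher (239.9 to 876.7), as was the cholesterol exporter Abca1 (28.7 to 69.4). Between M1 and M1+PBM none of the 17 had an unadjusted limma p of at most 0.05, against 1.45% of all rows lower and 2.99% higher, and their median log2 difference was 0.10 beside 0.06 over all rows.

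The rows whose profile over the 9 libraries was most like that of a receptor were found by the root mean square distance between log2(FPKM + 1) values, each centred on its own mean. For Olr1 the nearest were Hamp (distance 0.19), the gene of the iron hormone hepcidin, Hif1a (0.21), the hypoxia-inducible factor, and Gm45266 (0.23). Hif1a had means of 12.8, 46.5 and 23.3 FPKM in M0, M1 and M1+PBM, and Hamp 0.0171, 2.01 and 0.569. The likeness of Olr1 to Hif1a holds on this scale only, since the added 1 shrinks the changes of a gene as low as Olr1. M1 minus M0 was 1.54 for Olr1 and 1.81 for Hif1a, but 3.68 for Olr1 with a pseudocount of 0.1. Distances with that pseudocount were not computed. For Mrc1 they were Dock1 (0.29), Fasn (0.32) and Timp2 (0.32). For Cd36 they were Entpd1 (0.24), Pink1 (0.25) and Cd200r1 (0.28), and for Marco, which had no close match, Socs3 (0.56), Mmp14 (0.71) and Fpr1 (0.71). The nearest of Msr1 was Gm21188 (0.13).

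RefSeq promoters were matched for 8 of the 10 genes, and 4 motifs were searched on both strands of the 250 bases before the start. The PU.1 core GAGGAA was in 5 of the 8 (Marco, Olr1, Stab1, Mrc1 and Cd68) and in 23.3% of all 32851 promoters. In the sequences shown above it occurred 3 times in Mrc1 and once each in Marco and Olr1. The AP-1 site TGANTCA was in 2 of the 8 (Olr1 and Cd68) and in 6.75% of all, and in Olr1 it lay from 60 to 54 bases before the start (positions -60 to -54). The NF-kB motif was in Scarb2 alone (7.25% of all), and the STAT motif TTCNNNGAA was in none (7.02% of all). No match overlapped that of another motif. Genes higher and lower in M1 both held the PU.1 core, and a match describes letters in this window and not a bound site.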

How the data were processed

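The deposited files were 2 tables of FPKM values, 1 for the 3 M0 libraries and 1 for the 6 M1 and M1+PBM libraries, with 55655 rows each, of which 320 carry assembled-locus (MSTRG) names. The authors isolated RNA with TRIzol, made strand-specific TruSeq libraries and, per the paper's methods, used Cufflinks to obtain FPKM. The submitters' processing notes name Bowtie 0.12.2 and the build mm9. How these steps were joined is not given in the sources used here. Symbols came from GENCODE M21 and promoters from RefSeq on GRCm38.p6, matched by symbol, so their coordinates are of that build.

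Low values fell on whole multiples of 1 fragment (within 0.05) in 25.0% to 26.7% of cases, so reads were not recovered and no count test was run. The depth of each library was the one that made this share highest, so the 10% of an even spread at a fixed depth is no yardstick for it. The fragment numbers given for single genes rest on this depth and are approximate. The effect of PBM was fitted with limma 3.58.1 in R 4.3.3 (lmFit, eBayes with trend) on log2(FPKM + 1), with Benjamini-Hochberg adjustment over all 12238 rows, and by exact permutation tests in scipy 1.17.1. Limma was first tested on simulated data. Alternatives were a replicate block, quantile normalization, scaling by median of ratios, 0.1 as pseudocount, fits without the trend, without the minimum FPKM or with a mean FPKM of 5 or more, no minimum difference between M1 and M0, and each library left out. The deviations of same-numbered M1 and M1+PBM libraries correlated (r = 0.157, 0.469 and 0.462 across genes, which are not independent replicates). On that ground, and not from the labels, the numbers were used as pairs in the replicate block and in the paired differences. The main fit was unpaired.

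All 10 genes are named, with the 3 nearest rows by profile for some. The genes and lists were chosen with earlier results of these data known. Part of 1 of these lists is not reported here.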

Additional observations from a re-analysis of the deposited data

How the results depend on the processing

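No gene of the 10 met the study's thresholds between M1+PBM and M1, except that 1 (Olr1) met them with a pseudocount of 0.1, alone and together with the replicate block, median-of-ratios scaling or no minimum FPKM (the combinations were chosen after seeing the data). The smaller pseudocount itself enlarges the change of a gene near 1 FPKM. Over all rows, the number that met the thresholds was 32 (29 lower, 3 higher), 75 with a pseudocount of 0.1 (52 lower, 23 higher) and 236 with that pseudocount and no minimum FPKM (132 lower, 104 higher). With a mean FPKM of at least 5, Olr1 and Scarb1 left the test.

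With the numbers as a replicate block, the SE was smaller for 8 of the 9 tested genes, the median stayed at 0.21 and no call changed. Olr1 had an SE of 0.09, an unadjusted limma p of 0.000228 and an adjusted p of 0.53. The unadjusted limma p fell to 0.0502 for Scarb2, 0.0559 for Cd36 and 0.0573 for Stab1, each with an adjusted p of 0.58. Without the block the unadjusted limma p was 0.178, 0.188 and 0.172. The SEs, intervals and limma p-values of single genes given elsewhere come from the unpaired fit. The labels do not say whether libraries of equal number belong together. Leaving out 1 library at a time put the median between 0.00088 and 0.36 and the number of genes called at 0. The number lower in M1 than M0 was then between 2 and 4 (12.1% to 15.5% of all rows) and the number higher was 3 (7.63% to 8.82% of all rows). The sign of the PBM difference turned for Msr1 and Cd68 without M1 replicate 3, and for Marco without M1 replicate 1 (0.039) or M1+PBM replicate 3. Over all libraries left out in turn, the difference ran from -0.0403 to 0.33 for Msr1, from -0.549 to 0.0577 for Marco and from -0.0763 to 0.264 for Cd68. With no minimum difference, 5 genes were lower in M1 than in M0 (Cd163 and Cd68 were added, beside 50.6% of all rows). With a pseudocount of 0.1 there were 4 (Cd163 was added, beside 22% of all rows). Among single-gene values between M1+PBM and M1 under an alternative, 135 kept direction and side of an unadjusted p of 0.05, 3 came to pass it and 4 turned. Depth limits Olr1 in M0 and Cd163 in M1 and M1+PBM most.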

Other observations

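Transcription factors known to act on macrophage state or on these receptors were read from the same tables. Several were lower in M1 than in M0 by at least 1 on the log2 scale without overlap, as were 13.7% of all rows. Pparg, the lipid-sensing nuclear receptor that drives Cd36, went from 15.7 to 0.787 FPKM, Tfeb, a regulator of lysosomal genes, from 10.9 to 2.55, and Klf2 from 4.43 to 1.27. The Klf2 call rested on M0 replicate 3, as its M0 libraries were at 4.08, 2.16 and 7.04 FPKM. Without that library the M0 mean of Klf2 was 3.12 and its difference fell short of 1 on the log2 scale. Nr1h3 (LXRα), the oxysterol receptor, was higher (20.4 to 60.0 FPKM). Spi1, which encodes PU.1, had 57.7, 54.6 and 65.5 FPKM in M0 and 82.0, 79.9 and 99.2 in M1.

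Between M1 and M1+PBM, none of these regulators had an adjusted limma p under 0.05. Tfeb was at most 3.10 FPKM in M1 and at 3.38, 4.83 and 4.51 in M1+PBM, without overlap, with a log2 difference of 0.56 (SE 0.16, unadjusted p 0.0122, adjusted p 0.90 in limma). Nr1h3 was at 53.9, 67.5 and 58.7 FPKM in M1 and at 87.5, 85.2 and 68.3 in M1+PBM, also without overlap, with a log2 difference of 0.41 (SE 0.14, unadjusted p 0.0252, adjusted p 0.90 in limma). An unadjusted p of at most 0.05 in this direction was found for 2.99% of all rows, and no overlap in this direction for 8.51%. Spi1 had an estimate of 0.0035 (SE 0.12).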
